A study of Bos indicus with 12 samples.

Results

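The set described here has 10 members, chosen for their roles in milk: the fatty acid synthesis genes ACLY, ACACA, FASN and SCD, the triglyceride assembly genes GPAM, AGPAT1, LPIN1 and DGAT1, the lipogenic transcription factor SREBF1, and the transporter ABCG2. They were chosen by gene symbol, with no measured value in the rule, though earlier results of these data were known by then. Of the 10 symbols, 8 matched a row among the 26229 gene identifiers of the count table, and all 8 passed the filter on low counts that left 15420 genes. The identifiers that the name table gives to DGAT1 and SCD matched no row of counts, so DGAT1 and SCD were not analysed here.

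Milk fat is mostly triglyceride. In the lactating udder ACLY makes cytosolic acetyl-CoA from citrate, ACACA carboxylates it to malonyl-CoA, FASN builds the acyl chain and SCD introduces a double bond. GPAM, the AGPAT enzymes, the lipins and the DGAT enzymes then build triglyceride on a glycerol backbone in that order. The lipins remove a phosphate and the others each add an acyl chain. SREBF1 encodes SREBP1, which activates many of these genes. DGAT1 and ABCG2 lie under well-known cattle loci for milk composition, and ABCG2 is an efflux pump that secretes riboflavin, urate and drugs into milk. These enzymes also serve membrane lipid synthesis in other cells, and it is in blood, not in the udder, that they were measured here.

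The study took blood from 12 female Bos indicus cows in the second or the third lactation, with 3 in each of 4 groups: high-yielding Gir, low-yielding Gir, high-yielding Shweta Kapila and low-yielding Shweta Kapila. Gir is a zebu dairy breed and Shweta Kapila an indigenous breed of Goa. The labels name no drug or diet and no age. Yield class was set within a breed from its lactation records, so a high-yielding cow of one breed need not give as much milk as one of the other. The labels name peripheral blood mononuclear cells, yet the extraction kit is one for whole blood. Each library is from its own cow, so the p-values below measure the spread between cows.

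Libraries held 14.2 to 27.2 M counts (M for mega). The T cell gene CD3E stood at 531 CPM or more (CPM, counts per mega-count of the scaled library) in every library, and CD14 of monocytes at 12.7 CPM or more. Granulocyte markers were present in every library as well, with CXCR2 of neutrophils at 227 to 1028 CPM and CCR3 of eosinophils and basophils at 59.6 to 173 CPM. Of the 10 mammary epithelium markers 8 had a row of counts. The caseins CSN2 and CSN3 were at 0 in all 12 libraries, which allows a level of up to 0.110 to 0.211 CPM (3 counts per library, counting error only), and LALBA had 1 count in all. The summed mammary list, most of it EPCAM, lay between 0.929 and 4.88 CPM. The libraries of Shweta Kapila high 3, low 1 and low 2 were the only ones above 22 M counts. They had 9.00%, 13.1% and 11.7% of their counts on 37 unnamed gene identifiers that are shorter than the rest, against 4.54% to 8.70% in the other 9 libraries. Values without these 3 libraries are given beside the member results and named genes that move with them. That fit leaves Shweta Kapila low 3 as the only low-yielding cow of its breed, so low 3 alone sets that group's level there.

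ABCG2 (identifier 109560348) was higher in every Gir cow than in any Shweta Kapila cow. It stood at 14.0, 16.5 and 18.3 CPM in high-yielding Gir cows 1 to 3 and at 14.0, 18.6 and 17.2 CPM in low-yielding Gir cows 1 to 3. In Shweta Kapila it stood at 12.4, 13.5 and 9.75 CPM with high yield and at 9.83, 8.83 and 10.3 CPM with low yield. The gap between the breeds was narrow, from 13.5 CPM in the highest Shweta Kapila cow to 14.0 CPM in the lowest Gir cow, and within each breed the yield classes overlapped. The breed means were 16.4 ± 2.05 CPM in Gir and 10.8 ± 1.80 CPM in Shweta Kapila (SD, n = 6 each).

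**Figure D1:**
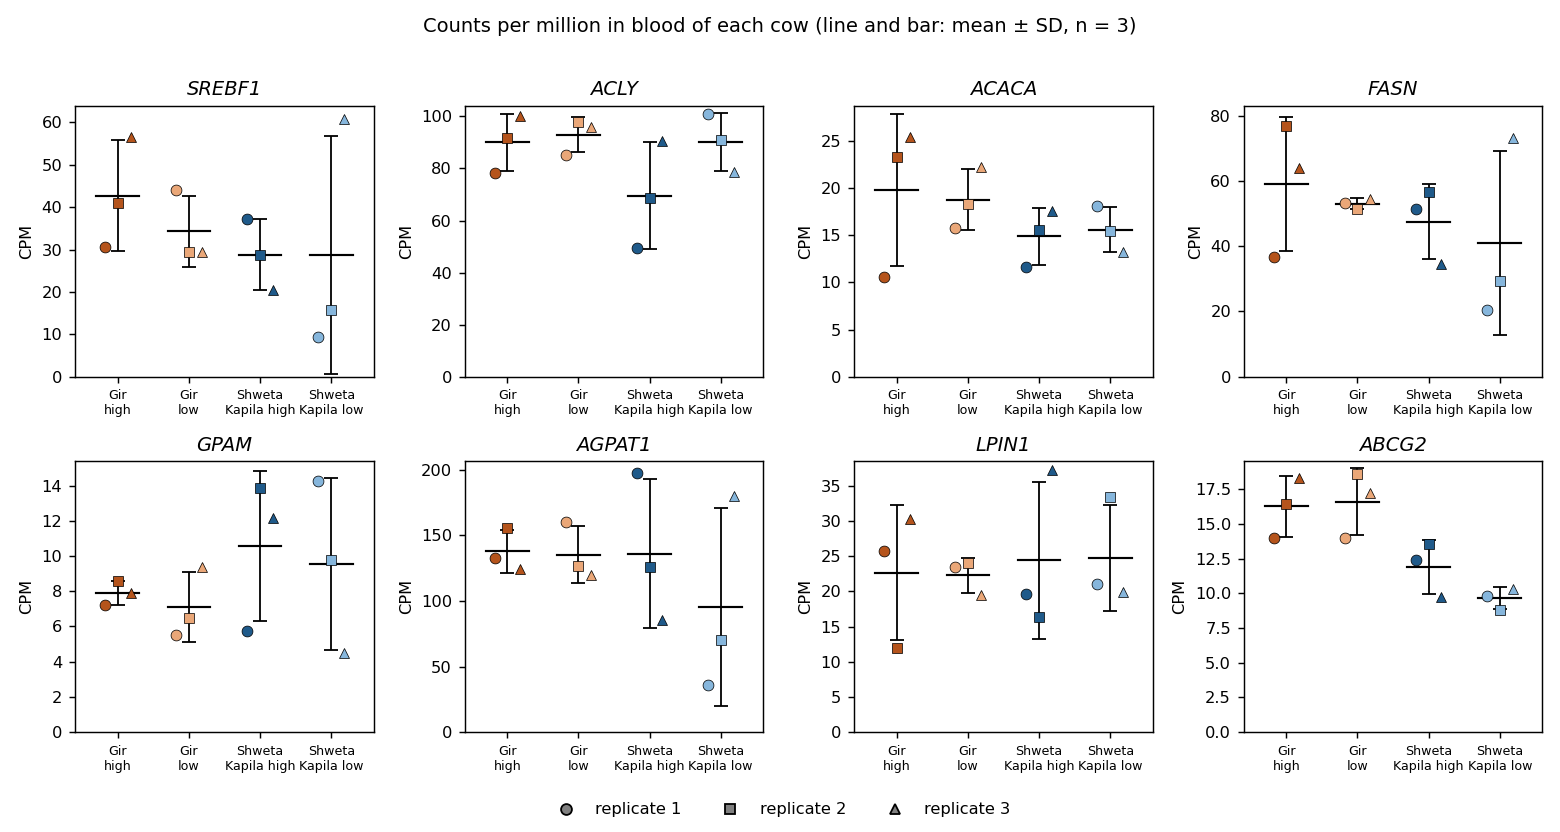
Normalised counts (CPM, vertical axis, from 0) of the 8 measured genes in each cow by group; points are cows, with the marker shape for the replicate number, and lines with bars are mean ± SD (n = 3). ABCG2 is the one gene whose Gir points all lie above all Shweta Kapila points, and the Shweta Kapila points of SREBF1 and AGPAT1 spread from 9.47 to 60.9 CPM and from 35.8 to 197 CPM.

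The breed difference of ABCG2 was 0.62 ± 0.17 on the log2 scale (SE), a 1.53-fold higher level in Gir with a 95% interval of 1.19 to 1.98-fold. Its unadjusted p was 0.00331, rank 160 of the 15420 genes, and edgeR's quasi-likelihood test did not call it after Benjamini-Hochberg adjustment (adjusted p = 0.315). That test called 0 genes between the breeds (0%), with 1476 (9.57%) at an unadjusted p under 0.05. Complete separation of the 6 Gir cows above the 6 Shweta Kapila cows was found in 41 genes (0.266%). Separation in the other direction was not counted, whereas the 9.57% holds both directions. DESeq2 and limma-voom with sample weights, run as alternatives, did call ABCG2 (adjusted p = 0.0161 and 0.012). DESeq2 called 1.27% of genes for this comparison and limma-voom 16.7%. With each cow left out in turn, the log2 difference ran from 0.56 to 0.67, and without the 3 libraries of over 22 M counts it was 0.51 (edgeR adjusted p = 0.221).

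Blood cell markers differed between the breeds as well. In bulk RNA, fewer cells of a type and less RNA per cell cannot be told apart. All 8 measured cytotoxic markers were lower in Gir, 6 of them at an unadjusted p under 0.05, and all 9 monocyte markers were higher, 2 of them at that level. The summed cytotoxic markers ran from 347 to 726 CPM in high-yielding and 359 to 929 CPM in low-yielding Gir cows, and from 1462 to 3838 CPM and 532 to 1275 CPM in the same classes of Shweta Kapila, with none of the 8 at 0. The monocyte sum ran from 2640 to 4081 CPM, 1913 to 2566 CPM, 1212 to 3936 CPM and 1341 to 2149 CPM in the 4 groups in the same order. Its largest genes were CSF3R, which is also on the neutrophil list, and S100A9. Of 12 T cell markers 9 were lower in Gir, 6 of them at that level. B cell (9 of 9), platelet (7 of 7) and neutrophil markers (7 of 8) were higher in Gir as well, with 0, 0 and 1 at that level. Of all genes 45.1% were higher in Gir, and 9.57% were at that level in either direction. Erythroid precursors are known to carry ABCG2, and of 5 tested erythroid markers 3 were above 0 and 2 below, with none at that level. The erythroid sum ran from 45.6 to 565 CPM in high-yielding Gir, 64.6 to 146 CPM in low-yielding Gir, 64.1 to 145 CPM in high-yielding Shweta Kapila and 70.2 to 109.9 CPM in low-yielding Shweta Kapila cows, so the breeds overlapped. The part of these markers in the ABCG2 difference was not tested.

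By yield, ABCG2 differed little within Gir, at −0.03 ± 0.24 on the log2 scale (SE; 95% interval 0.68 to 1.40-fold). In Shweta Kapila the difference was 0.30 ± 0.24 (0.86 to 1.77-fold). The difference between these yield effects was −0.33 ± 0.34, with an adjusted p of 0.955 from edgeR.

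SREBF1 (identifier 109573629), which encodes the transcription factor of the set, spanned the widest range of the members, 6.43-fold from the lowest to the highest cow. It stood at 30.7, 40.9 and 56.6 CPM in high-yielding Gir cows 1 to 3 and at 44.1, 29.3 and 29.5 CPM in low-yielding Gir cows. In high-yielding Shweta Kapila cows it stood at 37.3, 28.8 and 20.4 CPM. Low-yielding Shweta Kapila held both the lowest and the highest cow of the study, with 9.47, 15.7 and 60.9 CPM in cows 1 to 3. The groups therefore overlapped in every comparison.

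High-yielding and low-yielding cows differed in SREBF1 by 0.32 ± 0.55 (log2, SE) in Gir and by 0.01 ± 0.55 in Shweta Kapila. The intervals reach from 0.55 to 2.85-fold and from 0.44 to 2.29-fold, which is the precision that 3 cows per group gave here. The Shweta Kapila value turns on single cows: it was 1.19 without low 3 and −0.41 without low 1. Between the breeds SREBF1 differed by 0.41 ± 0.39 (edgeR adjusted p = 0.735). Without Shweta Kapila low 3 that difference was 1.01 and edgeR called it (adjusted p = 0.0443), in a fit that called 447 genes. Without the 3 libraries of over 22 M counts, which leaves low 3 alone in its class, the difference turned to −0.22. limma-voom with sample weights, which gave Shweta Kapila low 3 a weight of 0.184 and low 2 a weight of 6.62, called SREBF1 for breed as well (0.83, adjusted p = 0.0211), and AGPAT1 with it (0.56, adjusted p = 0.0484).

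For each of the 3 measured genes of acyl chain synthesis the groups overlapped in every comparison. FASN (identifier 109573330), the fatty acid synthase, followed the same cows as SREBF1. It stood at 36.6, 76.8 and 63.9 CPM in high-yielding Gir, 53.2, 51.4 and 54.6 CPM in low-yielding Gir, 51.5, 56.6 and 34.6 CPM in high-yielding Shweta Kapila and 20.3, 29.3 and 73.1 CPM in low-yielding Shweta Kapila cows. Shweta Kapila low 1 was lowest for both genes, and low 3 was highest of its breed for both. The log2 difference with yield was 0.16 ± 0.42 (SE) in Gir and 0.22 ± 0.42 in Shweta Kapila, and that between the breeds was 0.35 ± 0.30. The Shweta Kapila yield value of FASN was 0.94 without low 3 and −0.11 without low 1.

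ACLY (identifier 109573634), the citrate lyase, had an SD of log2 CPM of 0.13 in Gir and 0.37 in Shweta Kapila. It stood at 78.3, 91.5 and 100.2 CPM in high-yielding Gir and 85.3, 97.9 and 95.8 CPM in low-yielding Gir cows. In Shweta Kapila it stood at 49.6, 68.6 and 90.5 CPM with high yield and at 101, 90.9 and 78.6 CPM with low yield. Shweta Kapila high 1 was the lowest cow, and the yield classes overlapped through high 3. The yield difference in Shweta Kapila was −0.37 ± 0.23 (log2, SE; 0.54 to 1.10-fold), the lowest p of any member for yield there (unadjusted p = 0.136, edgeR adjusted p = 0.655). In Gir it was −0.05 ± 0.23, with an interval of 0.68 to 1.38-fold.

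ACACA (identifier 109573799), the acetyl-CoA carboxylase that sets the pace of the pathway, stood at 10.6, 23.3 and 25.5 CPM in high-yielding Gir, 15.7, 18.3 and 22.2 CPM in low-yielding Gir, 11.6, 15.5 and 17.6 CPM in high-yielding Shweta Kapila and 18.1, 15.5 and 13.2 CPM in low-yielding Shweta Kapila cows. Gir high 1 was the lowest cow, and all groups overlapped. The log2 differences were 0.08 ± 0.33 (SE) for yield in Gir, −0.07 ± 0.33 for yield in Shweta Kapila and 0.34 ± 0.23 between the breeds. ACACA was the one member whose cows spread more in Gir than in Shweta Kapila, with an SD of log2 CPM of 0.47 against 0.24.

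In triglyceride assembly, GPAM (identifier 109552997), the mitochondrial acyltransferase of the first step, ran against SREBF1. It stood at 7.20, 8.59 and 7.90 CPM in high-yielding Gir and 5.50, 6.45 and 9.36 CPM in low-yielding Gir cows. In Shweta Kapila it stood at 5.76, 13.9 and 12.1 CPM with high yield and at 14.3, 9.80 and 4.51 CPM with low yield. The lowest cow for GPAM, Shweta Kapila low 3, was the highest for SREBF1, and the highest for GPAM, low 1, was the lowest for SREBF1. GPAM and LPIN1 were the 2 members with a breed difference below 0, which for GPAM was −0.42 ± 0.30 on the log2 scale (SE; edgeR adjusted p = 0.655). Without the 3 libraries of over 22 M counts the GPAM sign turned (0.17), with low 3, its lowest cow, then alone in its class. With all cows the yield difference of GPAM was 0.15 ± 0.43 in either breed.

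AGPAT1 (identifier 109576853), which makes phosphatidic acid in the second step, stood at 133, 156 and 124 CPM in high-yielding Gir and 160.0, 127 and 119 CPM in low-yielding Gir cows. In Shweta Kapila it stood at 197, 126 and 85.2 CPM with high yield and at 35.8, 70.4 and 180 CPM with low yield. The 6 Gir cows lay within 1.34-fold of each other, whereas the Shweta Kapila cows spanned 5.51-fold, with low 1 and low 2 lowest and high 1 and low 3 highest. The yield difference was 0.02 ± 0.47 (log2, SE) in Gir and 0.51 ± 0.47 in Shweta Kapila. limma-voom with sample weights called AGPAT1 for yield in Shweta Kapila (0.90, adjusted p = 0.0316), where it called 25.3% of all genes and DESeq2 0.396%, and edgeR did not (adjusted p = 0.7). The Shweta Kapila value was 1.36 without low 3 and turned to −0.16 without the 3 largest libraries, which leaves low 3 alone in its class. Between the breeds AGPAT1 differed by 0.26 ± 0.33 with all cows (edgeR adjusted p = 0.805).

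LPIN1 (identifier 109566377), a phosphatidate phosphatase that yields diacylglycerol, stood at 25.8, 12.0 and 30.3 CPM in high-yielding Gir, 23.5, 24.0 and 19.4 CPM in low-yielding Gir, 19.6, 16.4 and 37.2 CPM in high-yielding Shweta Kapila and 21.0, 33.4 and 19.9 CPM in low-yielding Shweta Kapila cows. In each high-yielding group a single cow, Gir high 2 or Shweta Kapila high 3, stood apart from the rest, as low 2 did in low-yielding Shweta Kapila. Shweta Kapila high 3 and low 2 are among the libraries of over 22 M counts. The group means were within 22.3 to 24.8 CPM of each other. The log2 differences were 0.02 ± 0.39 (SE) for yield in Gir, −0.02 ± 0.39 for yield in Shweta Kapila and −0.13 ± 0.27 between the breeds.

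**Figure D2:**
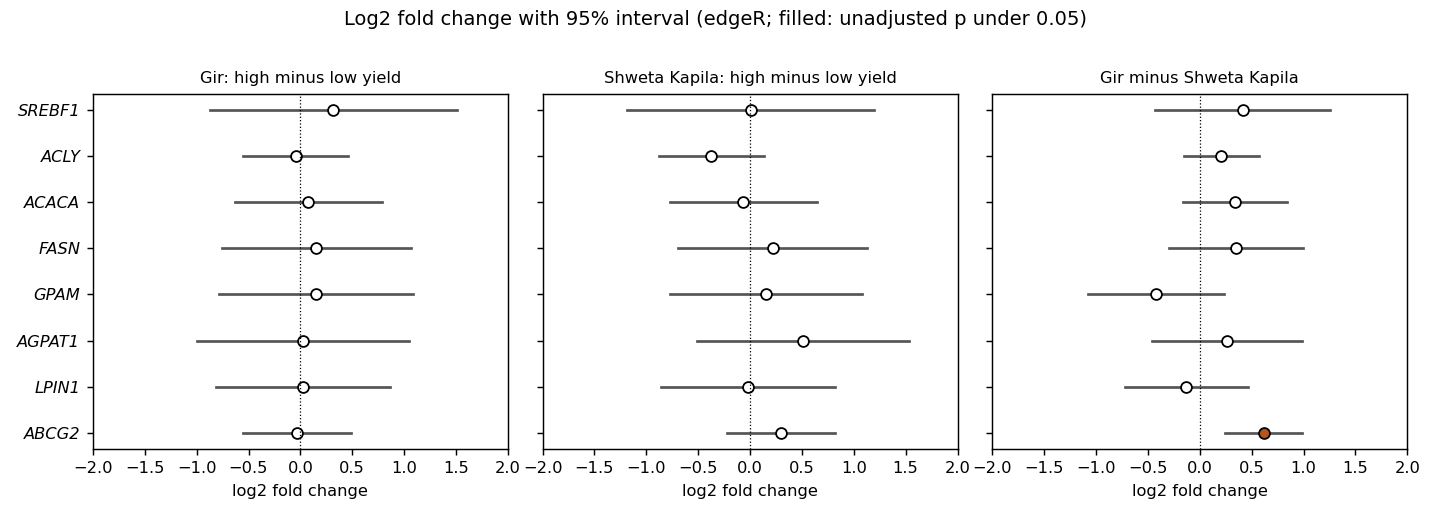
Log2 fold change (horizontal axis) of each measured gene with its 95% interval from edgeR, for high minus low yield in each breed and for Gir minus Shweta Kapila; a filled point has an unadjusted p under 0.05. Every interval but that of ABCG2 between the breeds (0.25 to 0.99) includes 0.

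Over the set, 0 of the 8 measured members were called by edgeR's quasi-likelihood test in any of the 5 comparisons, which called 0 of all genes too (0% in each). For yield in Gir, 0 of 8 had an unadjusted p under 0.05 and 291 of all genes did (1.89%). For yield in Shweta Kapila it was 0 of 8, against 1077 genes (6.98%). Averaged over both breeds it was 0 of 8 against 637 genes (4.13%), and for the difference between the breeds' yield effects 0 of 8 against 587 genes (3.81%). Between the breeds it was 1 of 8, ABCG2, against the 9.57% above. High-yielding and low-yielding cows separated completely for 0 of 8 members in Gir, where 10.2% of all genes did so, and for 0 of 8 in Shweta Kapila, where 7.21% did.

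The median log2 difference of the 8 members with yield was 0.05 in Gir and 0.08 in Shweta Kapila, beside −0.02 for all genes in either breed. By sign, 6 members were above 0 in Gir and 5 in Shweta Kapila, where 47.4% and 48.3% of all genes were. Between the breeds 6 of 8 were above 0, with a median of 0.30 beside −0.04 for all genes, of which 45.1% were above 0. Averaged over both breeds the yield difference was above 0 for 7 of 8 members (48.5% of all genes), with a median of 0.14. The difference between the breeds' yield effects was above 0 for 4 of 8 (50.9%).

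Spread between cows was larger in Shweta Kapila for 7 of the 8 members, as it was for 81.7% of all genes. The SD of log2 CPM was 0.92 against 0.18 for AGPAT1, 0.94 against 0.39 for SREBF1, 0.69 against 0.28 for GPAM, 0.68 against 0.36 for FASN and 0.37 against 0.13 for ACLY (n = 6 each). The median ratio over all genes was 1.76, and LPIN1 (1.01) and ABCG2 (1.27) stayed below it.

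**Figure D3:**
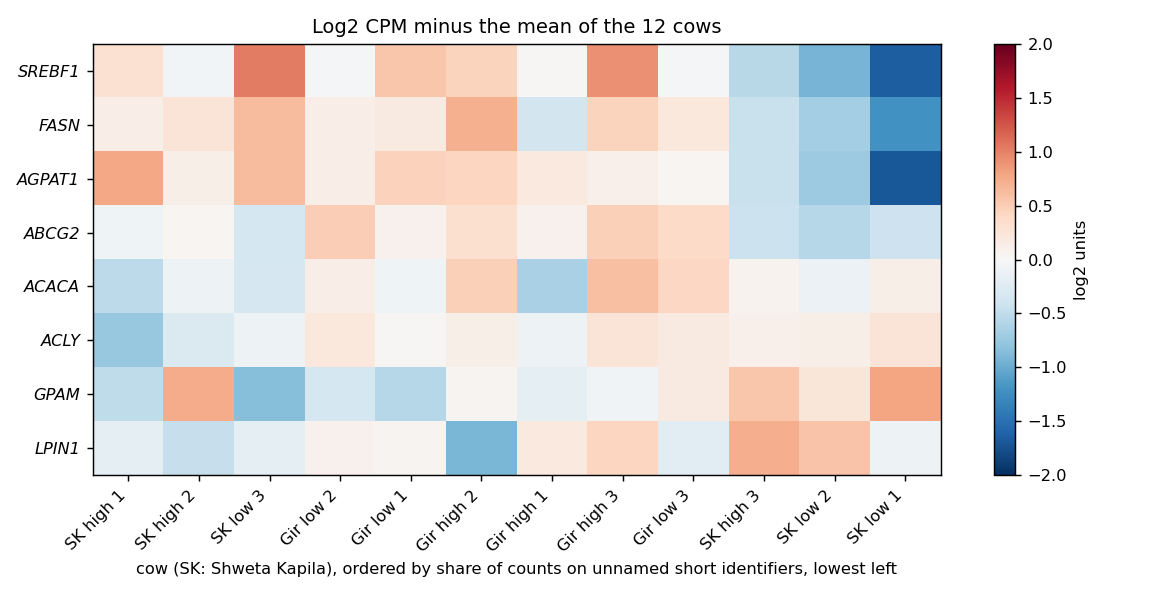
Log2 CPM of each measured gene minus its mean over the 12 cows (colour, red above and blue below the mean), with cows ordered from left to right by the share of counts on unnamed short identifiers. SREBF1, FASN and AGPAT1 are lowest in the 3 rightmost cows, all Shweta Kapila (SK), and GPAM is above its mean there.

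SREBF1 was followed by FASN and AGPAT1 from cow to cow. Over the 12 cows SREBF1 was related to FASN with a Pearson r of 0.915 and a Spearman rho of 0.783 (permutation p of 9e-05 and 0.00366, or 0.00063 and 0.0115 adjusted over the 7 relations of SREBF1). For AGPAT1, r was 0.904 and rho 0.769 (permutation p of 0.00018 and 0.00491, adjusted to 0.00063 and 0.0115). Without the 2 cows farthest from the median of SREBF1, Shweta Kapila low 1 and low 3, r was 0.811 for FASN (permutation p = 0.00494) and 0.781 for AGPAT1 (permutation p = 0.00863). In the 6 Shweta Kapila cows alone, FASN had r = 0.975 and AGPAT1 r = 0.955 (exact permutation p = 0.00417 and adjusted p = 0.0146 for each). The matching rho was 0.943 for both (exact permutation p = 0.0167, adjusted p = 0.0583). Within Gir neither relation passed (r = 0.559, exact permutation p = 0.263, adjusted p = 0.95 for FASN; r = 0.327, exact permutation p = 0.49, adjusted p = 0.95 for AGPAT1).

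GPAM ran the other way, with r = −0.737 and rho = −0.804 against SREBF1 (permutation p of 0.00511 and 0.00244, adjusted to 0.0119 and 0.0115). That relation rests on the same 2 cows, since r without them was −0.522 (permutation p = 0.121), and it did not pass within Shweta Kapila (r = −0.802, exact permutation p = 0.0639, adjusted p = 0.124) or Gir (r = −0.0977, exact permutation p = 0.842, adjusted p = 0.95). The other 4 relations did not pass over the 12 cows: r was 0.533 for ABCG2, 0.021 for ACACA, −0.26 for ACLY and −0.253 for LPIN1, with permutation adjusted p-values of 0.127 to 0.949 and rho of 0.448, 0.035, −0.217 and −0.231 (permutation adjusted p of 0.258 to 0.921). For ABCG2, r without Shweta Kapila low 1 and low 3 was 0.735 (permutation p = 0.0158, not adjusted), so its value over the 12 cows turned on those libraries. These values include the breed difference of ABCG2. Within Gir its r was 0.0519 and within Shweta Kapila 0.471 (exact permutation adjusted p = 0.95 and 0.395). As deviations from group means it was 0.30, and 0.41 without the same 2 cows (permutation p = 0.354 and 0.233, not adjusted).

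These correlations are shared by many genes. Of the 11896 named genes tested, 374 had r above 0.9 with SREBF1 over the same 12 libraries, 240 with FASN and 912 with AGPAT1. The genes most alike in pattern were CHCHD6 (r = 0.981) and ALDH4A1 (0.974) for SREBF1, SEC16A (0.971) and KMT2B (0.968) for FASN, and DMAC2 and SLC4A2 (0.986 each) for AGPAT1. For GPAM they were CYP51A1, an enzyme of cholesterol synthesis (0.954), and SUB1 (0.949). ACLY was most like TMEM144 (0.947) and UTP20 (0.944), and ABCG2 most like VSIG2 (0.923) and DCAF8 (0.898). ACACA (DAAM2, 0.868, and SCN4B, 0.859) and LPIN1 (PLAGL2, 0.869, and SH3BGRL2, 0.830) had no gene above 0.9. These are descriptions over 12 libraries that differ in breed, depth and blood cell markers.

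The share of counts on the 37 short identifiers moved with AGPAT1, and by r also with FASN and SREBF1. AGPAT1 was lower where that share was higher (r = −0.912 and rho = −0.853, permutation p of 9e-05 and 0.0008, or 0.00072 and 0.0064 adjusted over the 8 members). Without the 2 cows farthest from the median share, Shweta Kapila low 1 and low 2, its r was −0.733 (permutation p = 0.0143). ACLY went the other way, though not past the adjusted threshold over the 12 cows (r was 0.635 and rho 0.657, permutation p of 0.0289 and 0.0234, adjusted to 0.0578 and 0.0935). Its r without the same 2 cows was 0.735 (permutation p = 0.00907). FASN (r = −0.78, permutation p = 0.00321, adjusted p = 0.0104) and SREBF1 (r = −0.77, permutation p = 0.00389, adjusted p = 0.0104) were lower as well, but rho did not pass (−0.552 and −0.531, permutation adjusted p = 0.127 for each). Both relations rest on those 2 cows, as r without them was −0.334 (permutation p = 0.344) for FASN and −0.274 (permutation p = 0.44) for SREBF1.

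Within Shweta Kapila the share related to AGPAT1 (r = −0.939, exact permutation p = 0.00417, adjusted p = 0.0333), FASN (r = −0.933, exact permutation p = 0.0111, adjusted p = 0.0444) and SREBF1 (r = −0.887, exact permutation p = 0.0181, adjusted p = 0.0481). Of the 3, rho was −0.943, −0.771 and −0.829, none of which passed (exact permutation adjusted p = 0.0667, 0.156 and 0.156). ACLY was higher where the share was higher in these 6 cows, and the order of the cows was the same on both measures (rho = 1.0, exact permutation p = 0.00278, adjusted p = 0.0222). Its r of 0.834 did not pass (exact permutation p = 0.0278, adjusted p = 0.0556). Within Gir, whose share spans only 6.20% to 8.70%, r was −0.678 for AGPAT1 (exact permutation p = 0.131, adjusted p = 0.522), 0.0747 for FASN and 0.0887 for SREBF1 (exact permutation adjusted p = 0.867 for both). GPAM had the largest r there, 0.755, which did not pass either (exact permutation p = 0.0903, adjusted p = 0.522). With the share as a covariate, the yield difference in Shweta Kapila turned to −0.25 for AGPAT1, −0.35 for FASN and −0.64 for SREBF1, while the breed difference of ABCG2 stayed at 0.60. The part of this library property in the members' levels was not tested further.

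**Figure D4:**
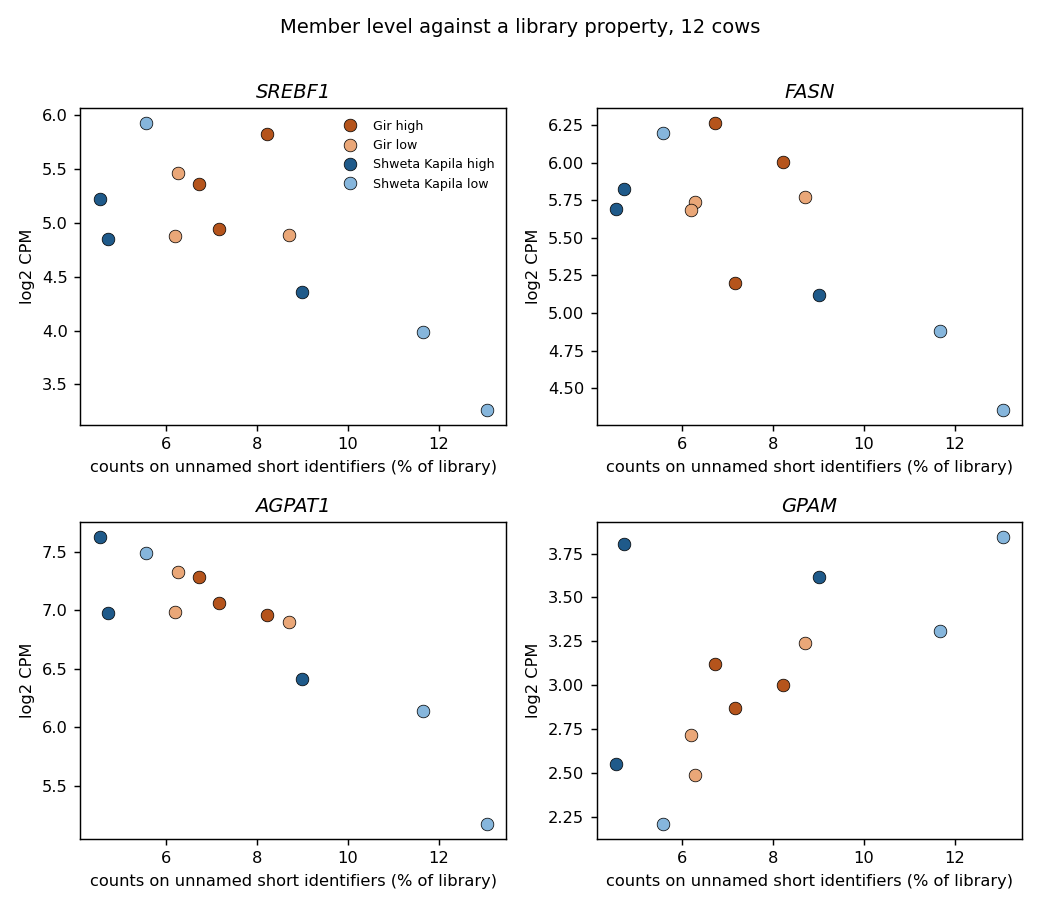
Log2 CPM of SREBF1, FASN, AGPAT1 and GPAM (vertical axes) against the percentage of a library's counts on unnamed short identifiers (horizontal axes), 1 point per cow coloured by group. The 3 Shweta Kapila cows at 9.00% and above lie lowest for SREBF1, FASN and AGPAT1, and the Gir cows form a narrow band between 6.20% and 8.70%.

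Of 115 other symbols in 5 lists of lipid and milk genes, 102 had a row of counts and 85 passed the filter. None was called by edgeR in any comparison (0 calls). At an unadjusted p under 0.05 there were 3 of 85 for yield in Gir (3.53%, beside 1.89% of all genes), 9 for yield in Shweta Kapila (10.6%, beside 6.98%) and 9 between the breeds (10.6%, beside 9.57%). Median log2 differences of the 85 were 0.01, 0.03 and 0.09, beside −0.02, −0.02 and −0.04 for all genes.

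**Figure D5:**
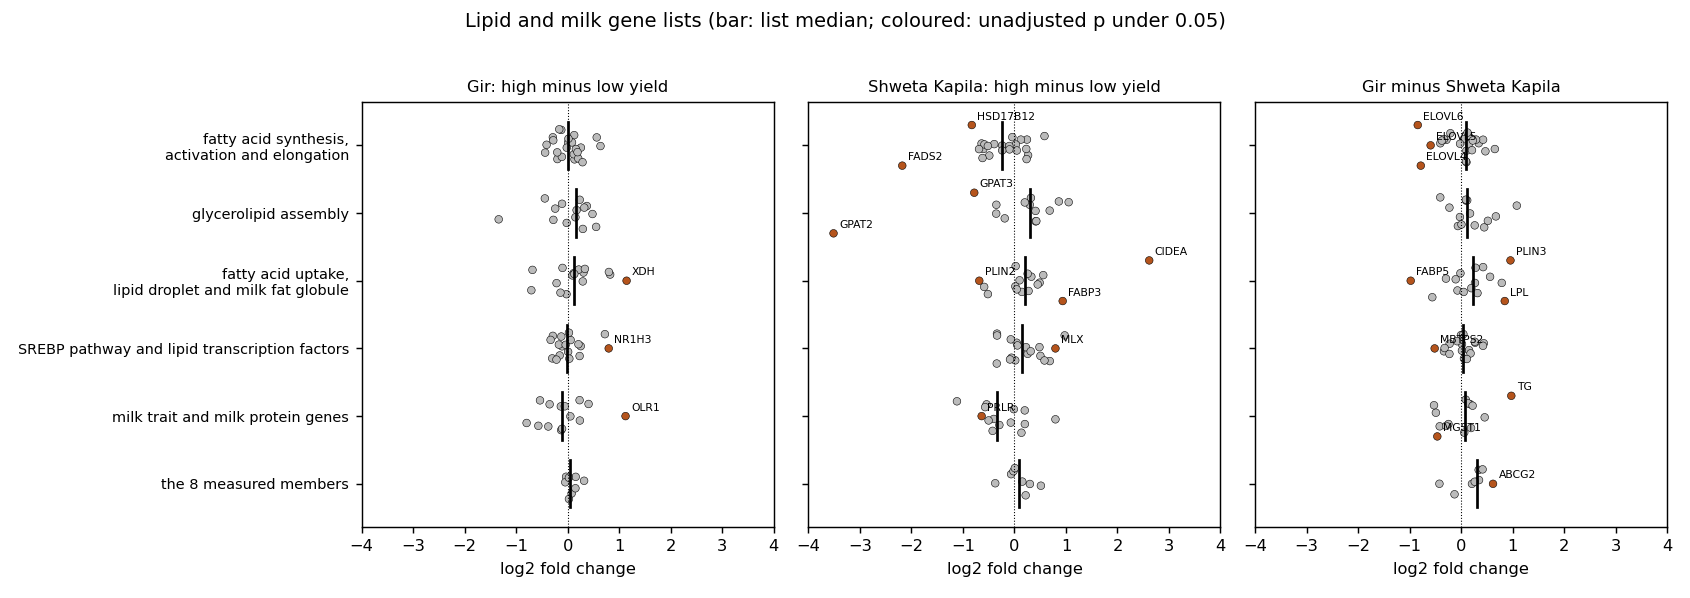
Log2 fold change (horizontal axis) of each tested gene of 5 lipid and milk gene lists and of the 8 measured members, for yield in each breed and for breed; bars are list medians and coloured, named points have an unadjusted p under 0.05. List medians lie between −0.35 and 0.31.

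In Gir, the 3 genes at that level were all higher with high yield. XDH, xanthine dehydrogenase, which also coats the milk fat globule, stood at 882 ± 450 CPM with high and 399 ± 41.8 CPM with low yield (SD, n = 3 each). Its log2 difference was 1.14 ± 0.49 (SE), and the classes did not overlap (560 to 1396 against 368 to 447 CPM). NR1H3, the sterol sensor LXR alpha that activates SREBF1 in liver, stood at 31.7 to 40.2 against 14.5 to 28.6 CPM (0.80 ± 0.33), also without overlap. Of all genes 10.2% separated the yield classes in Gir. OLR1, a scavenger receptor linked to milk fat in cattle, stood at 15.1 to 33.3 against 7.71 to 16.1 CPM (1.12 ± 0.47). All 9 monocyte markers were above 0 in the same comparison (47.4% of all genes were), with 1 at an unadjusted p under 0.05. Their summed levels were 2640 to 4081 CPM against 1913 to 2566 CPM. Over the 6 Gir cows CSF3R, also on the neutrophil list, averaged 1418 CPM and S100A9 859 CPM, beside 37.8 CPM for CD14. The part of these markers in the differences above was not tested. The other genes of lowest p in their lists were IDH1 (0.56 ± 0.30), ACSL6 (0.64 ± 0.41), AGPAT5 (0.37 ± 0.23), PLIN3 (0.80 ± 0.44) and RXRA (0.72 ± 0.40) on the higher side, and LCLAT1 (−0.44 ± 0.23) and the glucose transporter SLC2A1 (−0.80 ± 0.53) on the lower. Of these IDH1, ACSL6, AGPAT5 and SLC2A1 separated the yield classes too.

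In Shweta Kapila, the elongation enzyme HSD17B12 stood at 33.7 ± 12.5 CPM with high and 59.9 ± 18.9 CPM with low yield (SD, n = 3 each), a log2 difference of −0.83 ± 0.34 (SE). The endoplasmic acyltransferase GPAT3, which catalyses the same step as GPAM, stood at 16.4 ± 7.55 against 28.3 ± 5.50 CPM (−0.78 ± 0.30). In Gir GPAT3 was at 31.9 ± 1.39 against 27.1 ± 1.51 CPM, and the yield effects of the breeds differed by 1.01 ± 0.42 (unadjusted p = 0.0314, edgeR adjusted p = 0.955). The heart-type fatty acid binding protein FABP3 (0.94 ± 0.43) and the transcription factor MLX (0.80 ± 0.36) were on the higher side. The prolactin receptor PRLR (−0.64 ± 0.29) and the lipid droplet coat PLIN2 (−0.68 ± 0.31) were on the lower, PLIN2 being chosen after its values were seen. NR1H2 (0.69 ± 0.43) and TG (0.80 ± 0.48) had higher p-values. Without the 3 libraries of over 22 M counts, which leaves low 3 alone in its class, HSD17B12 was at −0.54, MLX at 0.50, NR1H2 at 0.15 and TG at 0.33, closer to 0 than with all cows. FABP3 was then at 1.61 and PRLR at −1.30, farther from 0.

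Low-level genes gave the widest values in Shweta Kapila. CIDEA, a lipid droplet protein, stood at 1.58, 1.60 and 0.560 CPM with high and 0.0889, 0.276 and 0.228 CPM with low yield (log2 difference 2.62 ± 0.79, SE; unadjusted p = 0.00617, edgeR adjusted p = 0.631). The desaturase FADS2 stood at 0.316, 0.213 and 0.336 against 0.711, 0.368 and 2.97 CPM (−2.18 ± 0.77). GPAT2 stood at 0.0633, 0.107 and 0 against 0, 0.184 and 1.83 CPM (−3.51 ± 1.45), with low 3 far above the other low-yielding cows. It reached 10 counts only in Gir low 1 (10.5), Gir low 3 (21.1) and Shweta Kapila low 3 (32.5). All of these are low-yielding, so GPAT2 passed the filter only through the class where it is high. It is among the 9 genes at an unadjusted p under 0.05 for yield in Shweta Kapila, and its difference is not read further. The differences of FADS2 and GPAT2 turned on low 3: without it they were −0.88 and −0.76. Without the 3 libraries of over 22 M counts, which leaves low 3 as the only low-yielding cow, FADS2 was at −3.46, GPAT2 at −4.29 and CIDEA at 2.76. CIDEA and FADS2 separated the yield classes with all cows, as 7.21% of all genes did, and GPAT2 did not. Cytotoxic markers (7 of 8 above 0, 6 of the list at an unadjusted p under 0.05), T cell markers (9 of 12 above 0, 5 of the list at that level) and B cell markers (8 of 9 below 0, 5 at that level) also moved with this comparison, and their part was not tested. Of all genes 48.3% were above 0 and 6.98% were at that level.

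Between the breeds, FABP5, a fatty acid binding protein of skin and macrophages, was lower in Gir at 7.29 ± 1.80 against 14.6 ± 6.26 CPM (SD, n = 6 each; log2 difference −0.98 ± 0.28, SE; edgeR adjusted p = 0.316). Without Shweta Kapila low 3 edgeR called it (−1.16, adjusted p = 0.0208), as it did ELOVL4 (−0.96, adjusted p = 0.049) and the SREBP-activating protease MBTPS2 (−0.64, adjusted p = 0.038). That fit called 447 of all genes, beside 0 with all cows, so these calls are not particular to the lists. Without the 3 libraries of over 22 M counts the values of FABP5, ELOVL4 and MBTPS2 were −0.35, −0.19 and −0.15. With all cows the elongases ELOVL4 and ELOVL5 were at −0.79 ± 0.30 and −0.59 ± 0.23, and MBTPS2 at −0.52 ± 0.18. PLIN3, a droplet coat protein (0.96 ± 0.31), and thyroglobulin TG (0.97 ± 0.33) were on the higher side in Gir. MGST1, which lies under a cattle locus for milk composition, was at −0.46 ± 0.20. ELOVL6 (−0.84 ± 0.37) and the lipase LPL (0.84 ± 0.38), chosen after their values were seen, were the others of the 9. Without the 3 large libraries ELOVL5 was at −0.24, PLIN3 at 0.63, TG at 0.57 and MGST1 at −0.10. In the 3 remaining Shweta Kapila cows ELOVL6 lay between 6.96 and 12.1 CPM, beside 8.24 to 13.4 CPM in Gir. LPL lay between 2.15 and 6.61 CPM in those 3, below the 7.19 to 14.5 CPM of Gir. With all cows the breeds overlapped for LPL, as Shweta Kapila low 2 stood at 12.1 CPM. The share of all genes that separate the breeds without the large libraries was not counted. GPAT3 (0.45 ± 0.21), LPIN3 (0.67 ± 0.37) and MLX (0.44 ± 0.26), of lowest p in their lists, did not reach that level with all cows. Without the large libraries GPAT3 was at 0.86 (edgeR adjusted p = 0.0756), LPIN3 at 0.29 and MLX at 0.03.

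Relatives of DGAT1, SREBF1 and SCD were named after their values were seen. DGAT2, which catalyses the same last step as DGAT1, stood at 375 to 741 CPM in Gir and 214 to 817 CPM in Shweta Kapila cows. Its log2 difference was 0.32 ± 0.46 (SE) for yield in Gir, 0.41 ± 0.46 for yield in Shweta Kapila and 0.52 ± 0.33 between the breeds (edgeR adjusted p = 0.622). SREBF2, the sterol-responsive relative of SREBF1, stood at 120 to 449 CPM in Shweta Kapila, with low 1 lowest and low 3 highest, as for SREBF1. In Gir it stood at 217 to 292 CPM. The second stearoyl-CoA desaturase gene, SCD5, did not exceed 0.320 CPM in any cow and did not pass the filter.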

How the data were processed

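Blood RNA of 12 cows was sequenced from strand-marked, ribosome-depleted libraries, per the labels' protocols. The authors deposited expected counts for each gene, not scaled to depth, of which 57.0% were not whole. Trimmomatic and FastQC are named per the submitters' processing notes; how reads were aligned and counted, on which build and strand, is not stated in those sources. Reads of overlapping or similar genes may therefore be split in unknown ways.

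Symbols came by identifier from a RefSeq table (assembly NIAB-ARS_B.indTharparkar_mat_pri_1.0), which matched 22754 identifiers (86.8%). No sequences, coordinates or transcript lengths were used, so levels are compared within a gene only, and the planned promoter and per-length summaries were not made. Expected counts were rounded and filtered with filterByExpr (minimum count 10, total 15). They were scaled by TMM and fitted in edgeR 4.0.16 (R 4.3.3) with a robust quasi-likelihood model, with a mean per group over all 12 libraries and Benjamini-Hochberg adjustment over 15420 genes at 0.05. CPM use TMM factors, and log2 CPM a prior count of 2. The SE is the log2 difference divided by the root of its F statistic. A count of 10 equals 0.368 to 0.704 CPM.

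DESeq2 1.42.0, limma 3.58.1 (voom), other scalings and filters, covariates, a replicate block and left-out libraries were alternatives. Correlations of log2 CPM used 100000 permutations over 12 cows and all orders within a breed. The model was tested on simulated data. All 8 measured members are named. From the wider lists the 2 genes of lowest p per list are named for yield in each breed and for breed, with any gene called, and each member's 2 most alike genes. Members and lists were chosen with earlier results of these data known.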

Additional observations from a re-analysis of the deposited data

How the results depend on the processing

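Counts of called genes depended on the tool. For breed, edgeR called 0 genes, DESeq2 195, limma-voom 2580, edgeR with the log2 total count as a covariate 53, with the short identifier share 24, with no filter on low counts 3, with the replicate block 1 and without libraries over 22 M counts 31; leaving out single cows gave 0 to 447, the latter without Shweta Kapila low 3. For yield in Shweta Kapila, DESeq2 called 61, limma-voom 3908, the log2 total covariate 1 and the fit without libraries over 22 M counts 3, with 0 to 2 on leaving out single cows (2 without low 3). For yield over both breeds DESeq2 called 4, limma-voom 1289 and the fit without the large libraries 1. For the yield difference between breeds DESeq2 called 9 and limma-voom 1321, with 0 to 1 on leaving out single cows (1 without Shweta Kapila low 1). For yield in Gir DESeq2 and limma-voom called 1 each. Of the 8 members, DESeq2 called 1 and limma-voom 3 for breed, limma-voom 1 for yield in Shweta Kapila, and leaving out single cows gave 0 to 1 for breed (1, SREBF1, without Shweta Kapila low 3). The causes were not tested.

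Of the log2 differences of members, 461 of 520 under the alternatives kept their side of 0 and of the threshold, 6 passed it and 53 changed sign. Without libraries over 22 M counts the breed difference turned to −0.31 for AGPAT1, −0.16 for FASN, −0.22 for SREBF1, 0.17 for GPAM and 0.26 for LPIN1, and the yield difference in Shweta Kapila, where 1 low-yielding cow is then left, to −0.16 for AGPAT1, −0.43 for FASN, −0.88 for SREBF1 and 0.039 for ACACA. With the short identifier share as a covariate the latter turned to −0.25 for AGPAT1, −0.35 for FASN, −0.64 for SREBF1, 0.23 for ACACA, 0.34 for LPIN1 and −0.12 for NR1H2, and LPIN1 in Gir to −0.041. The log2 total covariate turned AGPAT1 (−0.014) and LPIN1 (0.089) for breed, ACACA in Shweta Kapila (0.0046) and LPIN1 in Gir (−0.042). SREBF1 in Shweta Kapila turned to −0.0048 with DESeq2, −0.0043 with RLE scaling, −0.031 with upper quartile scaling and −0.0028 in the fit of that breed alone, and LPIN1 in Gir to −0.28 with limma-voom.

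Leaving out single cows gave, for yield in Gir, −0.14 to 0.066 for ABCG2, −0.15 to 0.38 for ACACA, −0.13 to 0.044 for ACLY, −0.071 to 0.16 for AGPAT1, −0.078 to 0.41 for FASN, −0.0033 to 0.40 for GPAM and −0.24 to 0.33 for LPIN1. For yield in Shweta Kapila it gave −0.20 to 0.093 for ACACA, −0.11 to 0.94 for FASN, −0.18 to 0.56 for GPAM, −0.46 to 0.27 for LPIN1 and −0.41 to 1.19 for SREBF1, and for breed −0.26 to 0.091 for LPIN1.

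Replicate numbers were not treated as pairs, since each library is from its own cow. Deviations of same-numbered cows from their group means correlated at −0.063, −0.0635 and 0.00627 in Gir and −0.511, −0.134 and −0.558 in Shweta Kapila. Deviations within a group of 3 cows are tied to each other, so these values cannot decide whether same-numbered cows share a batch. With the replicate block 1 gene was called for breed and 0 in the other comparisons, and LPIN1 in Gir turned to −0.031. As deviations from group means, SREBF1 against ACACA turned to r = −0.17. The promoter and per-length summaries were not run.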
